A study of Mus musculus with 16 samples.

Results

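DNA methylation was followed in 1275 tiles of 1 kb that stood at 35 to 65% in mouse fibroblasts and again in the induced pluripotent stem cells (iPSCs) made from them. They were chosen among 28067 CpG-rich tiles of chromosomes 1 to 19, of which they made up 4.54%. A tile was CpG-rich when at least 10 distinct CpGs in it were listed in any library and at least 3 of its sites, counted on each strand, had at least 10 reads in all 16 libraries. Its level in a library is the sum of methylated reads over the sum of all reads at those sites. The level had to lie between 35 and 65% in both fibroblast libraries (D0) and in both iPSC libraries. The choice used measured values, so levels in D0 and in iPSCs describe these tiles and support nothing about them. The days between, D2 to D12, played no part in it.

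The study reprogrammed fibroblasts to iPSCs with chemicals and took cells every 2 days for reduced representation bisulfite sequencing (RRBS), which reads methylation near the cut sites of the enzyme MspI. There were 2 libraries for each of 8 groups. D0 held mouse embryonic fibroblasts (MEFs), D2, D4, D6, D8, D10 and D12 held bulk cells after that many days in reprogramming medium, and the iPSC group held iPSCs from the study's reprogramming. All groups carry the strain label 129XOG2 E13.5 embryo. OG2 is a reporter strain in which the Oct4 promoter drives a green fluorescent protein, and the labels name neither a sort on the reporter nor the compounds of the medium. Bulk cells of a reprogramming day can be a mixture of cells at different stages, and a tile level is an average over them. The iPSCs grew on feeder cells in medium with LIF and the inhibitors CHIR99021 and PD0325901, and the labels do not say whether feeders, how many lines or which passage were in the libraries. RRBS holds no expression values, so no marker gene was available to check the cell types.

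An intermediate level of methylation can arise in several ways. At imprinted regions one parental copy is methylated and the other is not, so that each CpG reads as intermediate in every cell type. A mixture of cells can give the same value, and so can a stretch in which fully methylated CpGs lie beside unmethylated ones. Copying of methylation onto new DNA strands by the maintenance enzyme DNMT1 keeps such patterns through cell division, and its failure lets methylation dilute. The average of a tile cannot tell these apart, but the levels of its single sites can separate a uniform tile from one that mixes low and high sites.

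The tiles did not carry one uniform level. Only 14 of the 1275, or 1.10%, had each of their sites at 30 to 70% in D0 and in iPSCs, with the reads of both libraries of a group summed. Another 882 tiles, or 69.2%, held at least 1 site under 30% and at least 1 over 70% in D0 and likewise in iPSCs, and are called mixed. The remaining 379, or 29.7%, met neither description and are called other. A name that implies an evenly intermediate region therefore fits few of them, and they are called tiles of intermediate mean level here. The share of mixed tiles was larger where more sites were measured. It was 44.8% of the 172 tiles with 3 sites, 62.0% of the 300 with 4 to 5, 72.6% of the 369 with 6 to 9, 79.7% of the 364 with 10 to 19 and 87.1% of the 70 with 20 or more. Uniform tiles numbered 9, 3, 2, 0 and 0 in the same order. A tile with few sites has fewer chances to hold an extreme one, so uniformity at 3 sites is weakly tested. The uniform tiles had a median of 3 common sites and 95.3 reads per library, against 7 common sites and 268.5 reads for all 1275. Low and high sites in one tile were not particular to the 1275. In D0, 1019 of them held both, beside 5676 of the 7494 CpG-rich tiles above 65% in all 4 D0 and iPSC libraries. In iPSCs the counts were 1015 and 5868. Those high tiles had a median of 11 common sites.

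The pool behind the 1275 was larger on either side. There were 3111 CpG-rich tiles at 35 to 65% in both D0 libraries and 3903 in both iPSC libraries, so the shared tiles were 40.98% of the D0 list and 32.7% of the iPSC list. The limits cut through a continuous distribution. Just inside the lower limit, chr9:72951001-72952000 had 49.5 and 35% in iPSC libraries, against 37.6 and 36.1% in D0 libraries. Just outside it, chr5:26212001-26213000 had 36.1 and 40.04% in iPSC libraries, against 34.99 and 37.1% in D0 libraries, and missed by 1 D0 library alone. Near the upper limit, chr5:140914001-140915000 was kept with 59.1 and 65% in iPSC libraries, against 52.4 and 45.8% in D0 libraries. The tile chr10:77878001-77879000 was left out with 47.2 and 57.8% in iPSC libraries, against 61.3 and 65.02% in D0 libraries. Coordinates are those of GRCm39, 1-based. A gene annotation of that build was not used here, so tiles are named by position and imprinted genes were not looked up.

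Depth was adequate for averages over tiles and thin for single tiles. The 16 libraries listed between 1480222 and 2516218 sites with coverage sums of 38940697 to 107789714 reads, and 873038 sites, or 27.5% of all listed, had at least 10 reads in every library. The 1275 tiles held 10923 such sites. Across all sites shared by the libraries, the mean level was 51.2% in D0, 48.6% in D2, 17.8% in D12 and 47.9% in iPSCs, so the loss described below took place in cells that lost methylation at most sites. The 11194 CpG-rich tiles under 35% in all 4 D0 and iPSC libraries gave the low end of the measurement. Their median was lowest at 4.45% in D2 and highest at 8.43% in D4, with 8.00% in D12, 5.29% in iPSCs and 6.75% in D0. The low end moved by a few points between days, and differences of that size among the 1275 tiles cannot be read as changes of their own.

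The intermediate level did not persist through reprogramming. The median of the 1275 tiles was 54.3% in both D0 libraries, 51.2 and 51.6% in D2 libraries, 53.2 and 53.6% in D4 libraries, and 44.5 and 44.8% in D6 libraries. It was 31.6 and 30.8% in D8 libraries, 20.4 and 21.0% in D10 libraries, 15.4 and 15.1% in D12 libraries, and 52.7 and 52.5% in iPSC libraries. The libraries of a group lay within 1 percentage point of each other, and from D4 to D12 each day lay below the one before it by more than that. As means with SD over 2 libraries, the median was 15.2 ± 0.257% in D12 and 51.4 ± 0.276% in D2. Tiles still at 35 to 65% in both libraries of a day numbered 1027 in D2, 971 in D4, 856 in D6, 299 in D8, 65 in D10 and 26 in D12. Within 1 library the tiles spread widely, with 80% of them between 6.64 and 30.2% in the first D12 library and between 35.1 and 61.8% in the first D2 library.

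**Figure D1:**
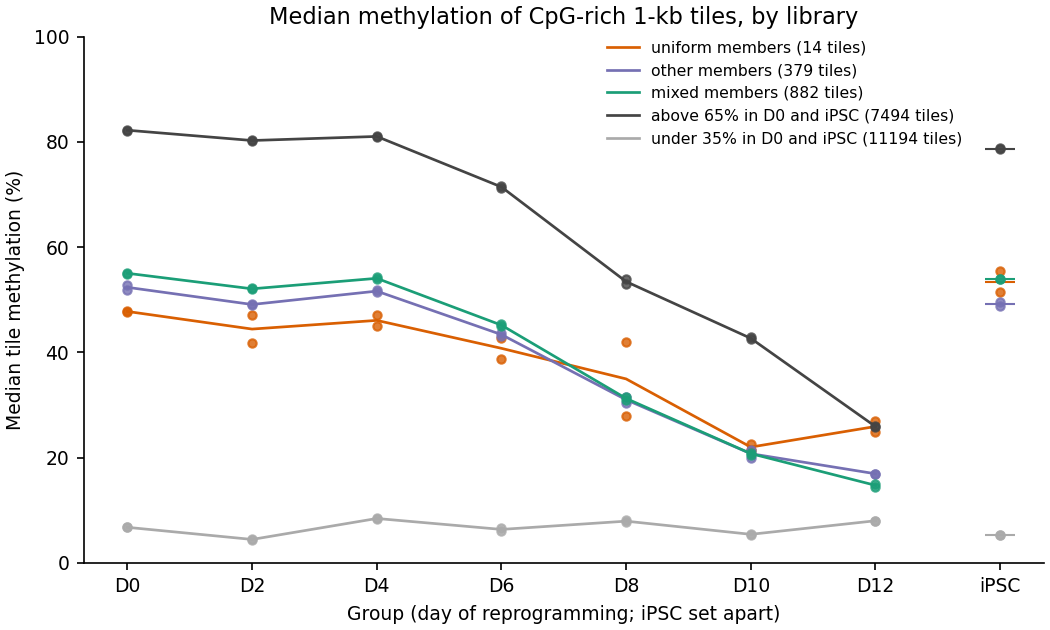
Median methylation of tiles (%) in each library against group, for uniform, other and mixed tiles of intermediate mean level and for tiles above 65% or under 35% in D0 and iPSCs. Points are libraries, lines join the means of 2 libraries, and iPSCs stand apart because they are not a day; mixed tiles stood at 14.7% in D12 and 52.1% in D2.

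Each day was tested against D2, the earliest group that the choice did not use. The test was edgeR's quasi-likelihood test on methylated and unmethylated reads per tile, fitted over all 94337 tiles that held at least 3 common sites, CpG-rich or not. Calls needed an adjusted p under 0.05 (Benjamini-Hochberg, over all tiles) together with a gap of 10 percentage points or more between the means of the groups. The replicates are not said to be separate cultures, so p-values measure the spread between these libraries, which may be technical. In D4 against D2, 0 of the 1275 tiles were called in either direction by edgeR, where 0.0% of all tiles were called lower and 0.00106% higher. At an unadjusted p under 0.05 in edgeR, 11 were lower and 48 higher, beside 943 lower and 3565 higher of all 94337 tiles. The excess of higher tiles was thus general. A quasi-binomial model also called 0 of the 1275.

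Loss became callable for a few tiles at D6 and for most at D8. In D6 against D2, 41 tiles, or 3.22%, were called lower, beside 4.99% of all tiles, and 0 were called higher, beside 0.122% of all tiles. At an unadjusted p under 0.05 in edgeR, 7 tiles were higher in D6, and the quasi-binomial model called 0 of them. The D6 count rests on single libraries. It was 0% without either D2 library or either D6 library, 6.35% without either D12 library, and 0% when D2 and D6 were fitted alone. In D8 against D2, 815 tiles, or 63.9%, were called lower, beside 66.7% of all tiles, and 6 were called higher, beside 1.11% of all tiles. Without D2 replicate 1 the D8 share was 48.5%, without D2 replicate 2 it was 46.8%, and without D8 replicate 2 it was 49.9%. The share at D6 and at D8 lay near that of all tiles, which pools unlike tiles. Called lower at D8 were 47.1% of all CpG-rich tiles, 90.6% of those above 65% in D0 and iPSCs and 1.47% of those under 35%. At D6 these shares were 3.78, 8.74 and 0.0983%.

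From D10 on the tiles of intermediate mean level were called lower more often than all tiles tested. In D10 against D2, 1129 tiles, or 88.5%, were called lower, beside 78.9% of all tiles, and 1 was called higher, beside 0.508%. In D12 against D2, 1173 tiles, or 92.0%, were called lower, beside 81.0% of all tiles, and 2 were called higher, beside 1.34%. The background includes tiles that began low and had nothing to lose, so the difference between 92.0 and 81.0% is not particular to an intermediate start. Of the 7494 CpG-rich tiles above 65% in all 4 D0 and iPSC libraries, 7469, or 99.7%, were called lower in D12. The day of the first call was D6 for 41 of the 1275 tiles, D8 for 775, D10 for 320 and D12 for 69, while 70 were never called lower. Of the 7494 high tiles, the first call was D6 for 655, D8 for 6137, D10 for 549 and D12 for 138, while 15 were never called. A high tile has more points to lose, and more of the fall passes a limit in points.

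Scaled to the level at D2, the tiles of intermediate mean level and the high tiles ended at nearly the same place and differed on the way. The median tile kept 31.4% of its D2 level at D12, and the median high tile 33.0%. At D10 the values were 41.7% for the tiles of intermediate mean level and 54.2% for the high tiles. Among tiles that lost at least 20 percentage points between D2 and D12, which were 1095 of the 1275, the median share of that loss reached by each day was 20.3% at D6, 56.3% at D8 and 84.8% at D10. Among 7457 high tiles it was 16.04% at D6, 49.3% at D8 and 68.7% at D10. The tiles at 35 to 65% in D0 only, 1836 in all, reached 83.4% of their loss by D10. The 2628 tiles at 35 to 65% in iPSCs only reached 74.3%, and their median in D2 was 71.3%. The sets started from different levels, and their timing was not tested against each other.

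**Figure D2:**
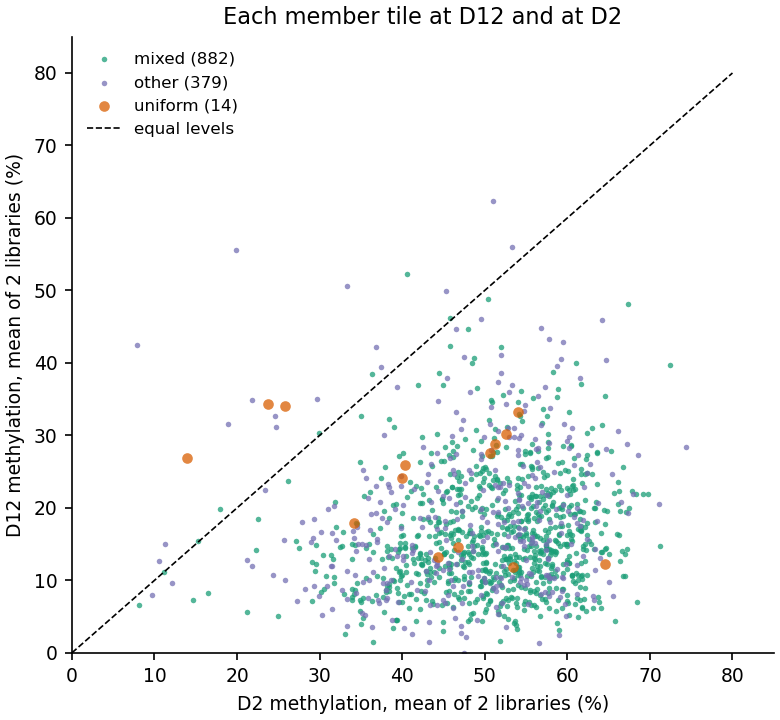
Methylation of each of the 1275 tiles at D12 (vertical axis, mean of 2 libraries, %) against D2 (horizontal axis, mean of 2 libraries, %), coloured by class, with the line of equal levels dashed. Most points lie far below the line, and 1173 of the 1275 tiles were called lower in D12.

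The comparisons with D0 and iPSCs use the libraries that chose the tiles and are given as description. In D12, 1223 tiles, or 95.9%, were called lower than in D0, beside 82.7% of all tiles called lower and 0.649% higher. In iPSCs, 1209 tiles, or 94.8%, were called higher than in D12, beside 79.8% of all tiles called higher and 1.48% lower. In iPSCs against D0, 37 tiles were called lower, beside 9.42% of all tiles, and 22 higher, beside 4.02% of all tiles. The choice required an intermediate level in iPSCs, so the gap between iPSCs and D12 in these tiles is largely fixed by it. Bulk D12 cells and iPSCs also differ in culture medium, time and cell makeup, which cannot be told apart.

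The single sites show what the tile averages hold. In D2, with both libraries summed, 29.02% of the 10923 sites were under 30%, 43.6% were at 30 to 70% and 27.4% were over 70%. Over the 401537 sites of all CpG-rich tiles the shares in D2 were 58.9, 10.6 and 30.5%. Sites at 30 to 70% thus made up a larger share of the 1275 tiles than of CpG-rich tiles at large, yet more than 1 in 2 of their sites was low or high. In D8 the shares among the 1275 tiles were 49.7% under 30%, 47.8% at 30 to 70% and 2.49% over 70%, and in D12 they were 85.6, 14.3 and 0.101%. High sites were therefore almost absent by D8, and sites at 30 to 70% made up 43.6 to 51.6% from D2 to D8 and 25.2% in D10.

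**Figure D3:**
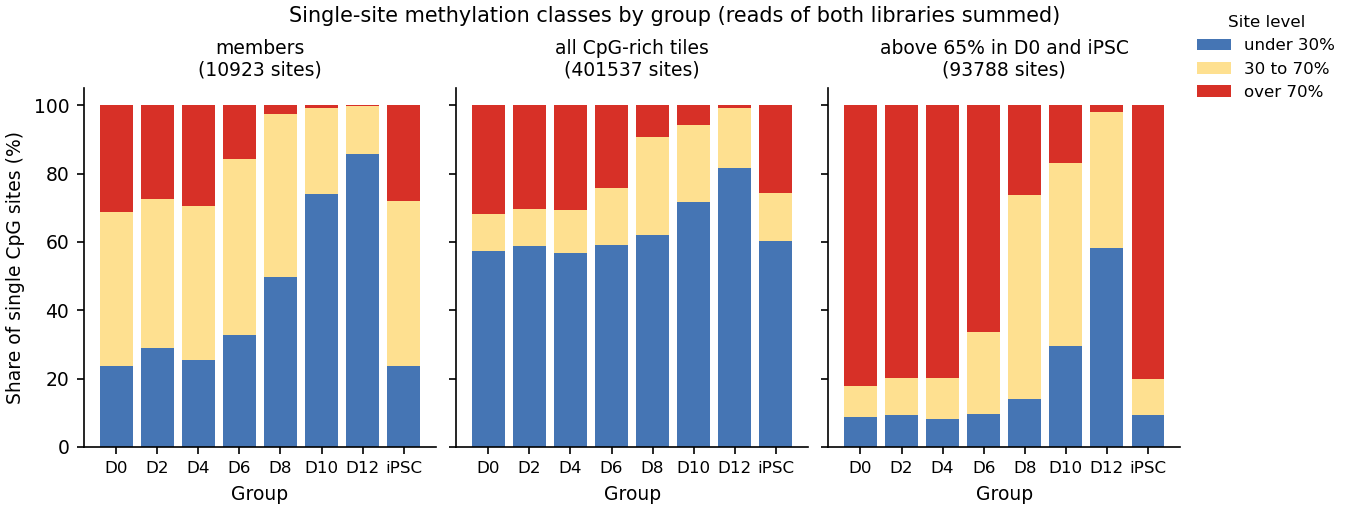
Share of single CpG sites (%) under 30%, at 30 to 70% and over 70% in each group, with the reads of 2 libraries summed, for the 1275 tiles (members), all CpG-rich tiles and the tiles above 65% in D0 and iPSCs. Among the 10923 sites of the 1275 tiles, those over 70% made up 2.49% in D8 and 27.4% in D2.

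The pattern of high and low sites inside the tiles was much alike in D0, D2, D4, D6 and iPSCs and less so in the later days. As a description across 10923 sites that share libraries and tiles, the Pearson r of the sites' deviations from their tile's mean with those in D2 was 0.914 for D4, 0.882 for D6, 0.738 for D8, 0.634 for D10 and 0.313 for D12. With the same values in D2 it was 0.837 for iPSCs and 0.926 for D0. The median SD of site levels within a tile was 27.0 percentage points in D2, where counting error alone gives 6.28. It was 14.8 points in D8 and 8.20 in D12, where counting error gives 4.08. A spread between sites must shrink as the mean nears 0, so its fall follows partly from the loss itself. The tiles above 65% also varied within, with a median SD of 25.5 points in D2.

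Sites sorted by their level in D2 and D4 together converged by D12 and stood apart again in iPSCs. The 3024 high sites averaged 82.4 ± 0.399% in D2, 47.6 ± 1.06% in D8, 21.2 ± 0.200% in D12 and 74.5 ± 0.0471% in iPSCs (SD, n = 2 libraries). The 5013 middle sites averaged 49.3 ± 0.415% in D2, 31.2 ± 0.720% in D8, 17.03 ± 0.0608% in D12 and 53.9 ± 0.00171% in iPSCs. The 2886 low sites averaged 13.9 ± 0.0221% in D2, 15.4 ± 1.49% in D8, 12.4 ± 0.449% in D12 and 23.7 ± 0.180% in iPSCs. By D12 the 3 classes lay within 9 points of each other, whereas in iPSCs they lay in the order they had in D2. The sites were sorted on D2 and D4 reads, so values in D2 are pulled toward the class they define, and the values from D6 on are free of that.

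A clear case is the mixed tile chr1:172350001-172351000, with 14 common sites and 523 to 1328 reads per library. Its level was 62.7 and 61.3% in D0 libraries, 63.3 and 64.9% in D2, 68.7 and 61.6% in D4, 58.9 and 54.9% in D6, 30.7 and 41.6% in D8, 17.9 and 23.9% in D10, 7.04 and 5.23% in D12, and 53.8 and 50.2% in iPSC libraries. Both D12 libraries lay far below both D2 libraries, a difference of -58.0 points (edgeR adjusted p = 2.16e-07). Its sites in D12 lay between 0.0 and 18.4%, and in D2 between 22.0 and 100%. The site at position 172350233 on the minus strand had 7.9% in D12 against 86.7% in D2, while the nearby site at 172350201 on the same strand had 1.4% in D12 against 22.0% in D2. High and low sites here lie close together, and all had become low by D12.

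The 4 mixed tiles with the largest loss, that tile among them, were chosen by D12 minus D2 among those with at least 6 common sites. Their large differences and small p-values in that comparison follow from the choice. In chr5:147594001-147595000 the level was 8.51 and 5.42% in D12 libraries, against 74.5 and 62.5% in D2 libraries, a difference of -61.5 points (edgeR adjusted p = 8.00e-07). In chr5:118615001-118616000 it was 4.71 and 4.01% in D12 libraries, against 61.1 and 70.5% in D2 libraries, a difference of -61.4 points (edgeR adjusted p = 2.11e-07). In chr6:55090001-55091000 it was 6.01 and 6.23% in D12 libraries, against 63.9 and 62.2% in D2 libraries, a difference of -57.0 points (edgeR adjusted p = 1.82e-07). Each of the 4 ended near the low end of the measurement, and each stood at 41.8% or more in both iPSC libraries, as the choice required of all tiles.

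**Figure D4:**
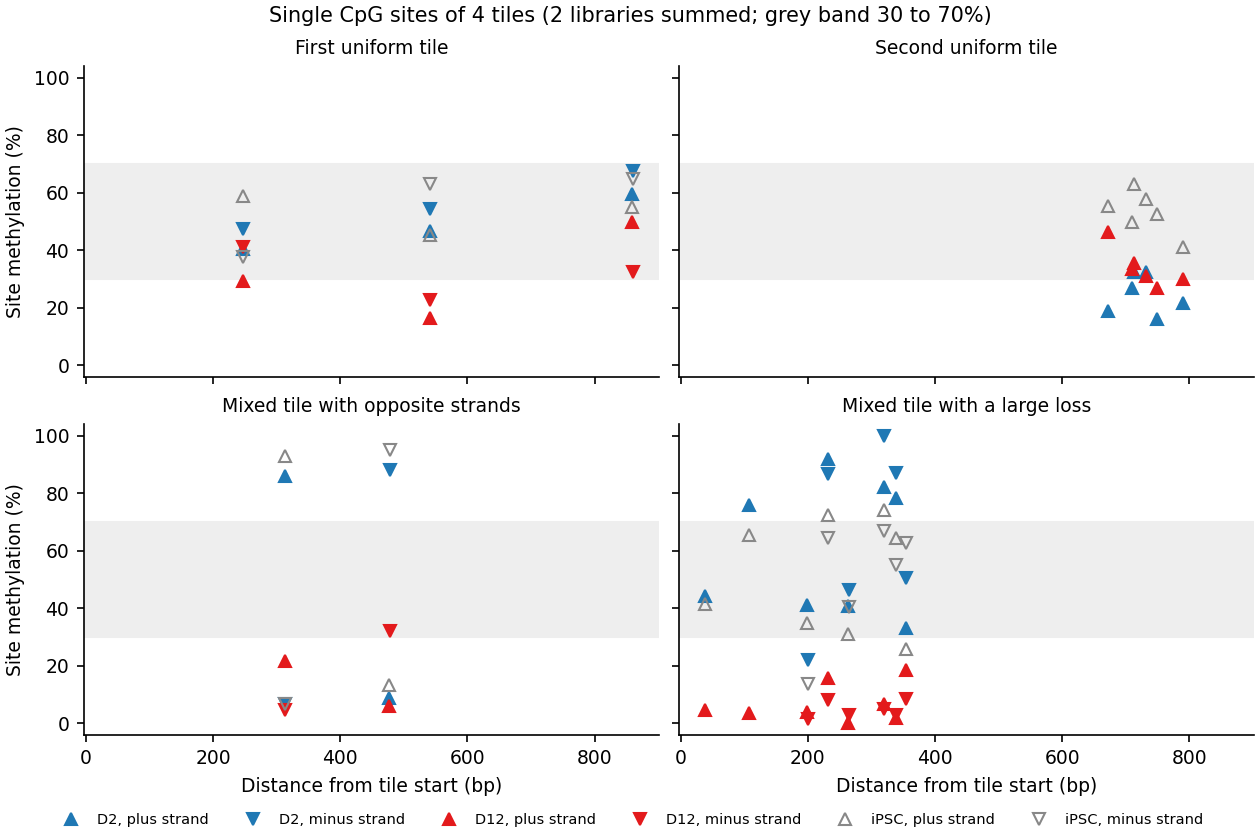
Methylation of single CpG sites (%) against distance from the tile start (bp) in 4 tiles, in D2, D12 and iPSCs with the reads of 2 libraries summed; triangles point up for the plus strand and down for the minus strand. In D2, sites ran from 40.6 to 67.7% in the first uniform tile (chr2:76580001-76581000) and from 16.2 to 32.4% in the second (chr7:34305001-34306000). In the mixed tiles (chr2:71654001-71655000 with opposite strands, chr1:172350001-172351000 with a large loss) low and high sites occur together in D2.

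The 14 uniform tiles are the ones whose single sites all stood at 30 to 70% in D0 and in iPSCs, and fewer of them met that limit on the days between. All sites were at 30 to 70% in 6 of the 14 tiles in D2, 4 in D4, 2 in D6, 7 in D8 and 0 in D12. Their median SD between sites was 10.9 points in D2, where counting error gives 6.97. It was 14.2 in D4, 14.4 in D6, 12.1 in D8, 11.0 in D10 and 9.29 in D12, against 9.20 in D0 and 11.3 in iPSCs. The spread in D2, D10 and D12 was thus no wider than in iPSCs. The choice used D0 and iPSC sites, and the mean level fell by D12, so the counts do not measure evenness alone. As a set, their median was 44.4 ± 3.87% in D2, 46.1 ± 1.501% in D4, 40.8 ± 2.87% in D6, 34.96 ± 9.86% in D8, 22.0 ± 0.897% in D10 and 25.9 ± 1.41% in D12 (SD, n = 2 libraries). They fell less far in relative terms, with a median of 56.8% of the D2 level left at D12, against 29.6% for mixed tiles and 36.4% for other tiles. With 14 tiles, mostly of 3 sites, no test between the classes was made. In D12 against D2, 9 of the 14 were called lower by edgeR and 0 higher, while 842 of 882 mixed tiles, or 95.5%, and 322 of 379 other tiles, or 84.96%, were called lower.

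Only 2 uniform tiles had at least 6 common sites, and they went different ways. The tile chr2:76580001-76581000, with 80 to 266 reads per library, had 61.3 and 51.8% in D0 libraries, 55.2 and 50.0% in D2, 55.7 and 61.2% in D4, 62.5 and 59.2% in D6, 52.2% in both D8 libraries, 34.7 and 39.0% in D10, 31.1 and 29.2% in D12, and 54.1 and 55.2% in iPSC libraries. It held its level to D8 and was called lower in D12 than in D2, by -22.4 points (edgeR adjusted p = 0.000454). Its sites fall on 3 CpGs with both strands each, and the 6 sites ran between 16.4 and 50.0% in D12, against 40.6 to 67.7% in D2. The tile chr7:34305001-34306000, with 66 to 299 reads per library, had 39.8 and 42.3% in D0 libraries, 29.5 and 22.2% in D2, 20.8 and 34.2% in D4, 43.9 and 32.8% in D6, 56.9 and 42.7% in D8, 47.4 and 20.8% in D10, 33.5 and 34.4% in D12, and 61.9 and 42.7% in iPSC libraries. Its group mean was lowest in D2, where each library was under 35% and 4 of the 6 sites were under 30%, while single libraries of D4 and D10 lay at 20.8%. D8 was higher than D2 by 23.96 points (edgeR adjusted p = 0.0376). The difference of D12 from D2 was 8.14 points (edgeR adjusted p = 0.378). Its 6 sites lie on one strand between positions 34305673 and 34305791 and have nearly equal coverage, as when the same reads span them, so they are not 6 independent readings.

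The other 12 uniform tiles had 3 or 4 sites and 35 to 309 reads per library. Those called lower in D12 than in D2 were 8, between -52.2 points in chr1:133340001-133341000 (edgeR adjusted p = 0.000621) and -15.9 points in chr2:27995001-27996000 (edgeR adjusted p = 0.0187). The tiles chr9:56789001-56790000 and chr11:84830001-84831000 had a lower mean in D12 and were not called, with differences of -16.2 and -14.4 points (edgeR adjusted p = 0.0689 and 0.0753). The tiles chr1:178399001-178400000 and chr3:89186001-89187000 had a higher mean in D12 than in D2, by 10.5 and 12.99 points (edgeR adjusted p = 0.299 and 0.285). Calls of single small tiles rested on single libraries. The calls of chr5:64693001-64694000, chr5:124155001-124156000 and chr7:103778001-103779000 were lost without D2 replicate 2 and without D12 replicate 1, that of chr14:76307001-76308000 without D2 replicate 1 and without D12 replicate 1, and that of chr2:27995001-27996000 without D2 replicate 1 and without D12 replicate 2. Without D12 replicate 1 chr9:56789001-56790000 was called lower, and so was chr11:84830001-84831000 without either D10 library. The 2 tiles with a higher mean had dropped out of the range already in D2, with 25.0 and 22.5% in the libraries of chr1:178399001-178400000 and 8.62 and 19.2% in those of chr3:89186001-89187000. None of the 14 was at 35 to 65% in every one of the 16 libraries.

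In 301 of the 1275 tiles a low and a high site were the 2 strands of the same CpG, by D2 and D4 reads together. Only 973 of the 1275 held a CpG with both strands measured. The same was seen in 2512 of 4981 such tiles above 65% and in 28283 of 60610 such tiles among all tested. Among 3286 CpGs of the 1275 tiles with both strands measured, the strands differed by at least 40 percentage points at 20.8% in D2, against 17.3% in the tiles above 65%, 0.308% in the tiles under 35%, 7.57% in all CpG-rich tiles and 21.4% in all tiles tested. At 395 CpGs, or 12.02%, one strand was under 30% and the other over 70% in D2 and D4 together. The share by the same measure was 13.8% in the tiles above 65% and 17.9% over 244989 CpGs of all tiles tested. By the D2 reads alone it was 12.4% in the 1275 tiles, against 5.62% in all CpG-rich tiles, 14.2% in the tiles above 65% and 0.0846% in the tiles under 35%. Opposite CpGs were thus more frequent than in CpG-rich tiles at large, less frequent than in the high tiles, and close to absent from the low ones, and these differences were not tested. The gap between the strands at the 3286 CpGs was correlated between iPSCs and D0 (Pearson r = 0.868, a description over CpGs that share libraries). The r was 0.929 in the tiles above 65% and 0.927 over all tiles tested. In the 1275 tiles, gaps of at least 40 points were found at 20.3% of CpGs in D0 and 22.4% in iPSCs. In chr2:71654001-71655000, chosen after its values were seen, position 71654314 on the plus strand had 21.6% in D12 and 86.0% in D2, and its partner 71654315 on the minus strand had 4.7% in D12 and 6.7% in D2. The next CpG had the reverse, with 6.1% in D12 and 8.8% in D2 at 71654478 on the plus strand and 32.1% in D12 and 88.0% in D2 at 71654479 on the minus strand.

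These opposite CpGs followed an order along the chromosome. There were 94 pairs of neighbouring opposite CpGs in the same tile, and in 86 the left CpG was low on the minus strand and the right CpG low on the plus strand, with 5 the other way round and 3 alike. The median distance in those 86 was 177 bp, with the central 90% between 148 and 293 bp, while reads were 150 bp long. Over all tiles 15370 of 15671 such pairs had the same order, at a median distance of 169 bp. The protocol fills in MspI ends with nucleotides before bisulfite treatment, and nothing in the sources used here says whether filled-in bases were trimmed. Their part in the strand differences was not tested, since no genome sequence of the build was at hand to place the MspI sites.

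**Figure D5:**
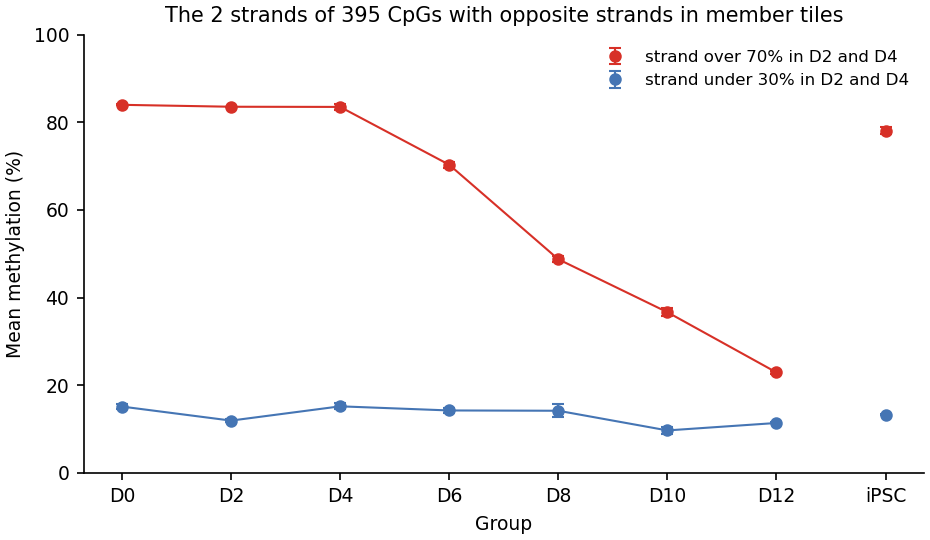
Mean methylation (%) of the high and the low strand at 395 CpGs with opposite strands in the 1275 tiles, by group; points are means of 2 libraries and bars are SD. The high strand lay at 22.9% in D12 and 83.6% in D2, and the low strand at 11.4% in D12 and 11.9% in D2.

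The high strand of the 395 CpGs lost most of its methylation by D12. It averaged 84.0 ± 0.109% in D0, 83.6 ± 0.0283% in D2, 83.5 ± 0.690% in D4, 70.3 ± 0.699% in D6, 48.8 ± 0.690% in D8, 36.7 ± 0.862% in D10 and 22.9 ± 0.265% in D12 (SD, n = 2 libraries), and iPSCs stood at 78.1 ± 0.731%. The low strand stayed between 9.68% in D10 and 15.2% in D4. By D12 most of the gap between the strands was gone. Opposite CpGs occurred in 301 of the 1275 tiles and in 264 of the 882 mixed ones, or 29.9%. With those CpGs set aside, 742 of the 882 mixed tiles, or 84.1%, still held low and high sites. These include the 618 mixed tiles without an opposite CpG, which could not change, so the share says little about the other 264. A CpG with both strands measured was found in 697 of the 882, so opposite strands could not be seen in the rest. With the reads of the strands merged at each CpG, an alternative, mixed tiles numbered 482 of 1197 tiles. Merging also changes the number of sites per tile, and 929 of the 1197 were among the 1275. The smaller mixed class therefore does not measure the part of the strands alone.

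The low and high sites of a tile seldom met at one border, where this could be judged. Of the 1275 tiles, 164 had at least 3 low and 3 high sites in D2 and D4 together, and in 31 of these, or 18.9%, the low and high sites were fully separated by position. The share of pairs of a low and a high site that lay in the tile's more common order had a median of 0.75. It is 1 with full separation and cannot fall below 0.5. The share was 0.9 or more in 44 of the 164 tiles and under 0.7 in 72. A random order of few sites also gives values above 0.5 and at times full separation. The values expected from it were not computed, so these counts do not show a separation by position. Tested tiles next door were found for 426 of the 1275, and of those 478 neighbours 72 had a level under 20% in D2, 64 had over 80% and 342 lay between, of which 158 stood at 35 to 65%. Among the 52 tiles with both neighbours tested, 13 stood between a neighbour under 35% and one over 65%, 11 between 2 over 65% and 2 between 2 under 35%. Counting only neighbours that also met the rule, there were 1263 single tiles and 6 pairs of adjacent ones, and 0 runs of 3 or more. RRBS covers only fragments near MspI sites, so most neighbours were not measured, and these counts do not show how far an intermediate level extends.

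The tiles were spread over all chromosomes analysed and were less frequent at higher CpG density, within tiles of at least 10 CpGs, the minimum for the choice. They made up between 3.05% of the CpG-rich tiles of chromosome 16 and 5.83% of those of chromosome 4. They were 6.58% of the CpG-rich tiles holding 10 to 14 CpGs, 4.71% at 15 to 19, 2.48% at 20 to 29 and 0.543% at 30 or more. The median level in D12 differed little with density. The part of the D2 level left at D12 had a median of 30.4% at 10 to 14 CpGs, 31.1% at 15 to 19, 36.05% at 20 to 29 and 36.7% at 30 or more.

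A few tiles stayed within the range. At D12, 26 of the 1275 tiles, or 2.04%, lay at 35 to 65% in both libraries. At D12 the range also held 6.93% of all CpG-rich tiles, 16.2% of the high tiles and 4.34% of all tiles tested. The high tiles began above the range and fell into it, so these shares do not measure staying. Of the 1836 tiles at 35 to 65% in D0 only, 30, or 1.63%, lay in the range in both D12 libraries. In all 16 libraries 4 of the 1275 tiles, or 0.314%, lay at 35 to 65%, of which 3 had 3 to 5 sites. The one with more is chr6:114505001-114506000, with 16 sites and 998 to 4040 reads per library. Its level was 49.7 and 49.4% in D0 libraries, 46.0 and 44.7% in D2, 56.2 and 60.1% in D4, 53.6 and 53.5% in D6, 63.1 and 53.2% in D8, 50.6 and 53.5% in D10, 50.0 and 49.9% in D12, and 47.7 and 50.7% in iPSC libraries. The libraries of D12 and D2 lay within 6 points, a difference of 4.57 points (edgeR adjusted p = 0.259), and D8 was called higher than D2 by 12.8 points (edgeR adjusted p = 0.00904). Its coverage of 149 reads per site stood at the 98.9th percentile of the 1275 tiles. Coverage far above the rest can come from reads of several copies of a sequence placed at one, and its part in the level of this tile was not tested.

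The other 3 tiles that stayed within the range lie on chromosome 3, and their levels varied within it. In chr3:41793001-41794000, a mixed tile of 5 sites, the level was 36.8 and 40.7% in D12 libraries, against 54.5 and 62.1% in D2 libraries, and it was called lower in D12 by -19.6 points (edgeR adjusted p = 0.00873) although it stayed in the range. In chr3:89793001-89794000, of 3 sites, the level was 45.6 and 43.7% in D12 libraries, against 49.2 and 43.9% in D2 libraries, and 62.3 and 57.8% in D0 libraries. In chr3:93113001-93114000, also of 3 sites, it was 38.8 and 35.9% in D12 libraries, against 49.3 and 53.8% in D2 libraries, with D12 minus D2 at -14.2 points (edgeR adjusted p = 0.0743). The smallest had 34 reads in a library, so these levels carry a wide counting error. A mean of at least 35% in D12 was seen in 54 of the 1275 tiles, of which 36 had 3 to 5 sites and 18 were nonetheless called lower than in D2. Such a mean was seen in 3179 of the 28067 CpG-rich tiles and in 7277 of the 94337 tiles tested.

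Among mixed tiles with at least 6 common sites, the 4 with the smallest loss were not called lower at D12, which follows from how they were chosen. The tile chr8:20698001-20699000 had the most sites of all 1275, 41, with 613 to 3719 reads per library. Its level was 40.3 and 55.0% in D0 libraries, 43.5 and 37.7% in D2, 60.4 and 47.8% in D4, 38.6 and 44.2% in D6, 35.7 and 54.8% in D8, 32.05 and 49.9% in D10, 47.0 and 57.6% in D12, and 35.3 and 41.1% in iPSC libraries. Replicates differed by up to 19 points and D12 did not differ from D2 beyond them, by 11.7 points (edgeR adjusted p = 0.206). The tile before it, chr8:20697001-20698000, is also among the 1275, and its mean was 26.1% in D12 and 54.5% in D2. In chr7:24174001-24175000 the level was 37.4 and 39.7% in D12 libraries, against 26.7 and 46.0% in D2 libraries, after 10.0 and 30.3% in D10 libraries. In chr6:82730001-82731000 it was 15.7 and 24.1% in D12 libraries, against 24.2 and 11.6% in D2 libraries, so this tile had left the range by D2. In chr6:124835001-124836000 it was 32.5 and 28.2% in D12 libraries, against 36.3 and 23.4% in D2 libraries, with 18.7 and 6.75% in D10 libraries. None of these 3 was called at D12 against D2 in edgeR's test (adjusted p = 0.800, 0.776 and 0.924).

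Loss was early in 29 of the 1275 tiles, which at D6 stood under 50% of their D2 level. The count over all CpG-rich tiles is not given here, so 29 cannot be set against a general share. A D6 level under 50% of D2 was also seen in 57 of the 1836 tiles at 35 to 65% in D0 only. It held for 31 of the 2628 tiles at 35 to 65% in iPSCs only and for 11 of the 7494 high tiles. Early loss was thus not particular to the 1275 tiles, and the sets were not tested against each other. Among the 29, the 5 lowest with at least 6 sites were named after their values were seen. They were picked by D6 over D2, so their D6 minus D2 differences and p-values describe the pick and are no separate support. In chr3:145698001-145699000 the level was 47.6 and 52.0% in D2 libraries, 31.8 and 26.8% in D4, 17.1 and 15.8% in D6, and 10.2 and 5.41% in D12. Both D6 libraries lay below both D2 libraries, by -33.4 points (edgeR adjusted p = 0.0149), and the D4 libraries lay between them. In chr1:151126001-151127000, with 26 sites, it was 42.3 and 34.5% in D2 libraries, 26.1 and 25.8% in D4 and 10.5 and 13.6% in D6, with D6 minus D2 at -26.4 points (edgeR adjusted p = 0.0282). In chr17:46935001-46936000 it was 9.87 and 19.1% in D6 libraries, against 51.6 and 56.3% in D2 libraries (edgeR adjusted p = 0.0217), and 40.4 and 27.1% in D8. In chr15:96556001-96557000 and chr13:52118001-52119000 the mean fell short of a call, with D6 minus D2 at -33.8 and -25.2 points (edgeR adjusted p = 0.0923 and 0.0586). In chr15:96556001-96557000 the D4 libraries themselves disagreed, at 22.2 and 46.9%.

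Few tiles rose against D2. The 2 called higher in D12, named after their values were seen, are chr8:72123001-72124000 and chr11:69495001-69496000. In chr8:72123001-72124000, of 12 sites, the level was 36.6 and 40.4% in D0 libraries, 15.7 and 0.0% in D2, 30.9 and 24.1% in D4, 33.9 and 47.7% in D6, and 46.5 and 38.5% in D12. D12 was higher than D2 by 34.7 points (edgeR adjusted p = 0.0132). In chr11:69495001-69496000, of 11 sites, it was 47.8 and 36.2% in D0 libraries, 15.2 and 24.5% in D2, 49.3 and 50.0% in D4, 10.9 and 48.9% in D8, and 62.0 and 49.1% in D12. D12 was higher than D2 by 35.8 points (edgeR adjusted p = 0.0173). Both were at 35 to 65% in D0 and D12 and below it in D2, so the call turns on low values in D2. Neither call held in each fit with 1 library left out. For chr8:72123001-72124000 it was lost without D2 replicate 2 and without D12 replicate 1, and for chr11:69495001-69496000 without D2 replicate 1 and without D12 replicate 1.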

How the data were processed

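Per the submitters' processing notes, reads were handled with fastp 0.20.1, Bismark 0.23.0, Bowtie2 and methylKit on the GRCm39 build. The authors' deposited tables list each CpG site by strand with its coverage, a count of reads, and the percent of reads called C. Coverage times percent gave whole methylated read counts at every listed site, and sites under 10 reads are not listed. Per the labels' protocols, DNA was cut with MspI, filled in with Klenow enzyme, ligated to methylated adapters and amplified for 15 cycles. No molecular identifiers are described, so reads are not independent molecules and counting errors are lower bounds. The sources used here do not state trimming, duplicate handling or conversion rate.

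Groups came from the labels. Sites with at least 10 reads in all 16 libraries were summed over 1-kb tiles counted from base 1 of each chromosome. Methylated and unmethylated counts of 94337 tiles on chromosomes 1 to 19, X and Y were fitted in one model of all 8 groups with edgeR 4.0.16 in R 4.3.3 (quasi-likelihood, library terms for coverage, Benjamini-Hochberg adjustment over all tiles). The model was tested on simulated data. Single-site classes used the reads of both libraries of a group summed. Named tiles were, among those with at least 6 common sites, up to 6 uniform tiles at each end of the D12 minus D2 difference, the 4 mixed tiles at each end, runs of at least 3 adjacent tiles, and tiles just inside and outside the limits. Only 2 uniform tiles qualified, so the other 12 are also given. The tiles, limits and lists were chosen with earlier results of these data known. Replicate numbers do not pair libraries, since over 28 pairs of groups the correlation of same-numbered deviations lay between -0.0270 and 0.0140. Alternatives were coverage, strand merging, limits, tile start, number of sites, model, minimum difference, fit of 2 groups, replicate block and each library left out. Gene names, promoters and sequences were not used here, as the tables at hand are of another build.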

Additional observations from a re-analysis of the deposited data

How the results depend on the processing

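The direction of each comparison with D2 over the 1275 tiles, lower from D6 on, held under every alternative that made calls, and the sizes of the classes did not hold. Shifted tiles below start in the middle of the original ones. Tiles numbered 681 with at least 20 reads per site, 482 with limits of 40 to 60%, 803 with at least 6 common sites and 384 with only CpGs whose strands lay within 20 points, this last set after seeing the data. Mixed tiles numbered 389 with 20 reads, 482 with strands merged, 368 with limits of 40 to 60% and 122 with close strands only. Uniform tiles numbered 9 with 20 reads, 39 with strands merged, 5 with limits of 40 to 60%, 2 with 6 sites and 38 with single-site limits of 25 and 75%. Of the 681 tiles at 20 reads 458 were among the 1275, as were 929 of the 1197 with strands merged.

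The share called lower in D6 was 9.69% with 20 reads, 8.63% with a quasi-binomial model, 0.941% with a minimum difference of 25 points, 5.35% with 6 sites, 5.21% with close strands only and 0.0% with D2 and D6 fitted alone. In D8 a minimum difference of 25 points gave 23.9%. Tiles called higher in D6 were 1 with strands merged and 1 with shifted tiles. In D8 they were 1 with 20 reads, 1 with 25 points, 1 with limits of 40 to 60%, 2 with 6 sites and 0 with close strands. In D10 they were 0 with 20 reads, limits of 40 to 60% or close strands and 2 with shifted tiles. In D12 they were 0 with 20 reads, limits of 40 to 60% or close strands, 4 with strands merged and 1 with 2 groups alone. The median in D12 was 12.5% with 20 reads, 16.2% with strands merged, 14.003% with 6 sites, 14.9% without CpGs whose strands differ by 40 points or more, another setting chosen after seeing the data, and 14.5% with close strands. For uniform tiles it was 21.1% with 20 reads, 23.9% with strands merged, 23.6% with limits of 40 to 60%, 23.3% with shifted tiles, 32.1% with 6 sites, 23.5% with site limits of 25 and 75% and 20.1% with close strands.

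With 1 library left out, the share called lower was 0.0 to 6.35% in D6, 46.8 to 67.9% in D8, 80.1 to 89.8% in D10 and 86.7 to 92.6% in D12, and 0.0% in D4. Tiles called higher were 2 to 10 in D8, 1 to 5 in D10 and 0 to 4 in D12. The median in D12 was 15.0 to 15.6%, and for uniform tiles 22.9 to 28.0%. Leaving out a D0 or iPSC library changed only the choice of tiles, which then numbered 1516 to 1565, with 1032 to 1071 mixed and 12 to 14 uniform. With replicate numbers as a replicate block, which pair nothing here, 2.04% were called lower in D6, and no other count moved by over 1.5 times.

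Among single tiles, the D12 minus D2 difference changed sign in 3 tiles that were not called. In chr6:82730001 it lay between -4.31 and 8.27 with 1 library left out, and was -5.59 with 20 reads, -4.31 without D2 replicate 2 and -2.20 without D12 replicate 2. In chr6:124835001 it lay between -5.96 and 6.91, and was -5.89 with strands merged, -5.96 without D2 replicate 2 and -1.69 without D12 replicate 1. In chr7:24174001 it lay between -7.51 and 11.8, with -7.51 without D2 replicate 1. The cause was not tested. At this coverage single tiles and sites carry the wider counting error, and the median in D12 also moved with the minimum of reads, as given above.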

Other observations

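The X chromosome was outside the choice of tiles. Of 475 CpG-rich X tiles, 8, or 1.68%, met the same limits of 35 to 65% in both D0 and both iPSC libraries, against 4.54% on chromosomes 1 to 19. The X tiles at 35 to 65% in both iPSC libraries were 50, or 10.5%, against 13.9% on chromosomes 1 to 19. Those at 35 to 65% in both D0 libraries were 14, or 2.95%, against 11.1%. Of the 8 X tiles 7 were mixed and 0 uniform. Their median was 56.5% in D2, 59.5% in D4, 49.3% in D6, 32.9% in D8, 26.1% in D10 and 18.8% in D12. The labels do not give the sex of the embryos, and these values were not tested.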
